A study of Mus musculus with 7 samples.

Results

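Neural stem cells of the subventricular zone divide in culture under EGF and FGF-2, and 45 mouse genes of EGF and FGF signalling were examined in such cells after knockdown of KAP1. The genes were chosen by symbol and by role, as receptors, ligands, heparan sulfate cofactors, MAPK feedback inhibitors and ETS transcription factors or growth targets. Of the 45 genes, 15 have a line among the 3389 genes of the authors' deposited table, which holds only genes with an adjusted p under 0.05, and the other 30 have none. The groups were cells nucleofected with shRNA against KAP1 (shKAP1, 4 libraries) and control cells (3 libraries). Both grew from dissociated mouse tissue in Neurobasal medium with B27, EGF at 20 ng/mL and FGF-2 at 20 ng/mL, so the ligands of both receptor families were supplied to every culture. The labels used here state neither strain, age and number of animals nor what the control cells received. The p-values therefore reflect only the spread between these libraries, which may be technical. The data are poly(A) RNA sequencing of the bulk culture, where fewer cells of a type and less RNA per cell cannot be told apart.

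EGF and its relatives, such as the heparin-binding factor HB-EGF, transforming growth factor alpha and amphiregulin, bind receptors of the EGFR and ErbB family. FGFs bind FGF receptors together with heparan sulfate, a sulfated sugar chain carried by glypican and syndecan core proteins. Sulfate groups at the 2-O and 6-O positions of the chain help to form the complex of FGF and its receptor. Both receptor families activate RAS and the kinases RAF, MEK and ERK. ERK activity in turn induces feedback inhibitors, among them Sprouty and Spred proteins and dual-specificity phosphatases, and the ETS factors Etv4 and Etv5. In the subventricular zone both growth factors are known to keep progenitors dividing.

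KAP1 is the protein of Trim28, a corepressor recruited to DNA by KRAB zinc finger proteins. Each line of the authors' deposited table holds a gene's normalized count averaged over samples, its log2 fold change with the standard error (SE), and the adjusted p from DESeq2, with no value for any single library. Library depth is therefore unknown, and the SE is the only measure of replicate error. No numerator is named in the file, and positive log2 fold changes were read as higher in shKAP1 because Trim28 is negative, at -1.17 (SE 0.05, DESeq2 adjusted p = 1.78e-101). Percentages of the control level given below are 2 to the power of the log2 fold change, with 95% intervals from the SE. Of the 7 neural stem cell markers checked, 4 were listed and all 4 were higher, namely Vim at 0.40, Fabp7 at 0.48, Slc1a3 at 0.47 and Nes at 0.19 (log2 fold changes of the authors' deposited table), whereas Sox2 and Pax6 were not listed. No microglial or endothelial marker was listed (0 of 3 each). Of 4 mural cell and fibroblast markers, the smooth muscle genes Acta2 at 1.03 and Tagln at 0.87 were higher in log2 fold change in the authors' deposited table, and Pdgfrb and Col1a1 were not listed. Of 3 neuroblast markers, Dcx was lower at -0.62 (SE 0.18, DESeq2 adjusted p = 0.00285) in the authors' deposited table, and Dlx2 and Tubb3 were not listed. Other higher markers in the authors' deposited table were Olig2 of the oligodendrocyte lineage at 0.20, the astrocyte gene Aldh1l1 at 0.29 (1 of 3 markers listed for either type) and Foxj1, a gene of ciliated ependymal cells, at 0.59. The part of these cell types in the results below was not tested.

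The heparan sulfate genes are 16 of the 45 members and held 8 of the 15 listed ones. This is a listed share of 50.0%, against 26.3% of all genes with an adjusted p. With 28 further heparan sulfate genes added, the share is 29.5%. The 8 listed genes include 2 paralogs that moved in opposite directions and a glypican gene that lies near one of them. Hs6st1 and Hs6st2 both encode 6-O-sulfotransferases. Hs6st2 was lower and Hs6st1 higher, and Gpc4, near Hs6st2 on chromosome X, was higher. The RefSeq sequences around the start sites of these genes, from 250 bases before to 50 bases after the start in GRCm38.p6, are shown so that the diverging pair and the neighbour can be compared. Capitals mark CG dinucleotides.
Hs6st2, chrX:51681553-51681852, minus strand: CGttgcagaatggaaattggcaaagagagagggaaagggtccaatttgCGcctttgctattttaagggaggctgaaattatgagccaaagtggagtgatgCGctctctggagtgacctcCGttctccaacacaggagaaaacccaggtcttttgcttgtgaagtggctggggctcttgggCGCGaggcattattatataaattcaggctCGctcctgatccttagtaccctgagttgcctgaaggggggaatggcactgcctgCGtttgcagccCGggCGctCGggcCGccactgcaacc
Hs6st2, chrX:51680428-51680727, minus strand: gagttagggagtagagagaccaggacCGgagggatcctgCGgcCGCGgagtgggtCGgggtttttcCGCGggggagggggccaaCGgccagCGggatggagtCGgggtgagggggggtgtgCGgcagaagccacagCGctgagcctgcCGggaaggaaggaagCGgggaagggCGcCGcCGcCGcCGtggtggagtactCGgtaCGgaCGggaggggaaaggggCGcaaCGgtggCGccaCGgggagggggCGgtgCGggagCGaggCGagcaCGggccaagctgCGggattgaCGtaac
Hs6st1, chr1:36068150-36068449, plus strand: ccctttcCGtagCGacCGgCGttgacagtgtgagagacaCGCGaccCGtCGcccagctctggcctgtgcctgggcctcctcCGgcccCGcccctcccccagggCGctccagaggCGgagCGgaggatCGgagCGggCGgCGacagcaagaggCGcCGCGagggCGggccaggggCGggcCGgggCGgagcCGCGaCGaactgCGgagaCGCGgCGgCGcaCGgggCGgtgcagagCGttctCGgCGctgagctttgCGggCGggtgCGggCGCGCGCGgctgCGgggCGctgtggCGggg
Gpc4, chrX:52164874-52165173, minus strand: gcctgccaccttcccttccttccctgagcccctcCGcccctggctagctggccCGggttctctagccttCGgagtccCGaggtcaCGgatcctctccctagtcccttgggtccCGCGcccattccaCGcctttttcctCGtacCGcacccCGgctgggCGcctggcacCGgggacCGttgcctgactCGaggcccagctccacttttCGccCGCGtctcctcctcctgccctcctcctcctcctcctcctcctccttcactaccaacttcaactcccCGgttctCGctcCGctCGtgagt

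The Hs6st1 window holds 47 CG dinucleotides at 78.0% GC. The Hs6st2 windows hold 12 for the upstream and 33 for the downstream start site, and the Gpc4 window holds 22. All 4 lie above the median of 7 CG dinucleotides over 32851 windows of the same length. The same holds for every other window of a listed member except that of Fgfr2, with 4, so it is not particular to these genes. At 53.7% GC the upstream Hs6st2 window is near the median of 52.7% over all windows.

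Over the whole set of members, 10 genes were higher and 5 lower in shKAP1. The 15 listed members are 33.3% of the 45, while among 12905 genes with an adjusted p 26.3% were listed, 12.6% as higher and 13.7% as lower. The members' share is near this background, and how many of the 30 genes without a line were tested is unknown. The median log2 fold change of the listed members was 0.30, against -0.13 over all listed genes, and their median size of change was 1.25-fold, against 1.22-fold over all listed genes. At the stricter limit of an adjusted p under 0.01, 9 members remained, a limit passed by 17.7% of all tested genes. Changes of at least 2-fold were seen for Hs6st2 and Areg, and the listed genes of this size make up 0.635% of all tested genes. Tested genes without a line have no fold change and could not be counted. The Bonferroni limit was met by Hs6st1, Hs6st2 and Sulf2, and by 7.21% of all tested genes. A 95% interval wholly beyond 1.2-fold was found for Areg, Hs6st2 and Gpc4, and listed genes with such an interval make up 4.89% of all tested genes.

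**Figure D1:**
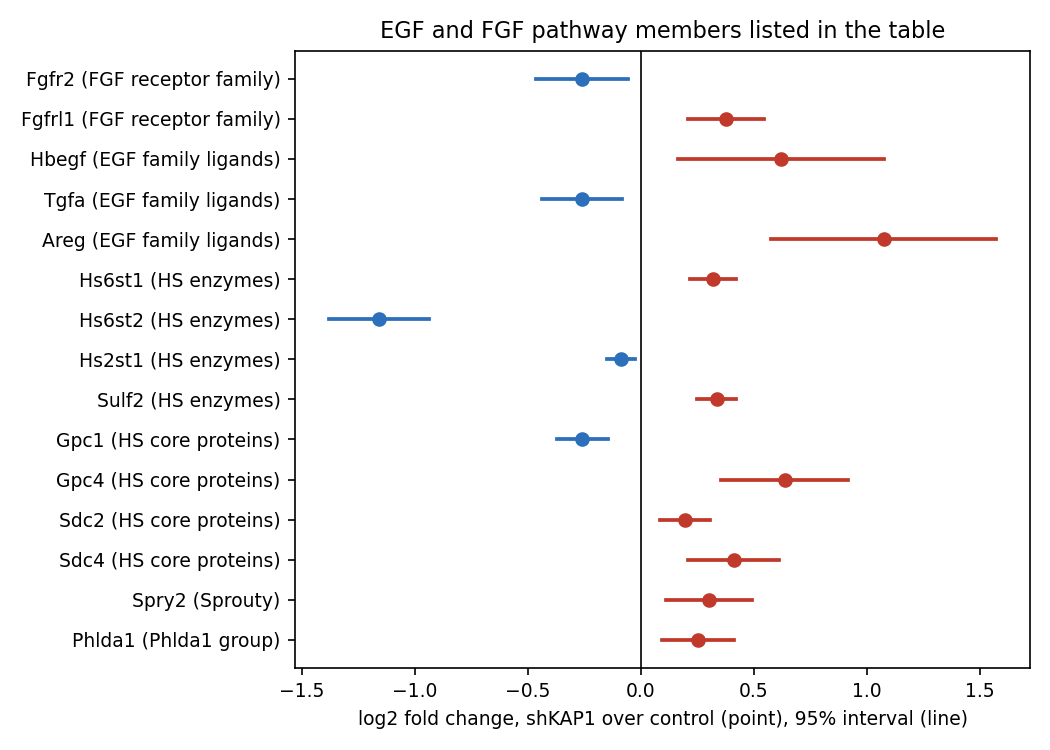
Log2 fold change of shKAP1 over control for the 15 listed members, ordered by role. Points are the values of the authors' deposited table, lines are 95% intervals from its SE, red is higher and blue lower in shKAP1, and HS stands for heparan sulfate. Hs6st2 at -1.16 and Areg at 1.07 lie farthest from 0 and Hs2st1 at -0.09 nearest.

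Among the receptors, 2 of 7 genes were listed (28.6%, against 26.3% of all tested genes), in opposite directions. Fgfr2, an FGF receptor tyrosine kinase, was lower at a log2 fold change of -0.26 (SE 0.10, DESeq2 adjusted p = 0.0479) in the authors' deposited table, which is 83.5% of the control level (95% interval 72.5 to 96.2). Its rank by p was 3356 of 3389, close to the edge of the table. Fgfrl1 encodes a receptor-like protein that binds FGFs and lacks the tyrosine kinase domain. It was higher, at 0.38 (SE 0.09, DESeq2 adjusted p = 1.50e-04) in the authors' deposited table, or 130% of the control level (95% interval 115.5 to 146). The RefSeq window of Fgfrl1 was the only one among 13 windows of 11 listed members with the ETS motif CCGGAAGT, searched on both strands and present in 3.89% of all windows. The motif starts 48 bases before the Fgfrl1 start site and is shown here in capitals.
Fgfrl1, chr5:108693979-108694278, plus strand: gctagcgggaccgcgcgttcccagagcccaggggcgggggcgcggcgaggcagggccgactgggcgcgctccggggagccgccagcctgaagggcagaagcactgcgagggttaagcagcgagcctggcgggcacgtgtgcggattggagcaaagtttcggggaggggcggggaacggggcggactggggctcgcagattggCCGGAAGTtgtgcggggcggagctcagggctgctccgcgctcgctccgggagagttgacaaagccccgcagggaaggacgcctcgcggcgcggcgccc

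The Capicua motifs TGAATGAA and TGAATGGA, bound by a repressor that ERK signalling relieves, were found in none of the 13 windows and in 1.30% and 1.21% of all windows. No motif here overlaps another one searched. Egfr, Erbb2 and Erbb3, genes of the EGF receptor family, and the FGF receptor genes Fgfr1 and Fgfr3 were not listed. A gene without a line may have been tested and missed the limit, or may not have been tested at all.

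Of the ligand genes, 3 of 6 were listed (50.0%, against 26.3% of all tested genes), all of them of the EGF family. A share of so few genes says little. Hbegf, encoding HB-EGF, was higher at 0.62 (SE 0.23, DESeq2 adjusted p = 0.0326) in the authors' deposited table, or 154% of the control level (95% interval 112 to 211). Areg, encoding amphiregulin, was higher at 1.07 (SE 0.25, DESeq2 adjusted p = 2.68e-04) in the authors' deposited table, or 211% of the control level (95% interval 149 to 298). Tgfa, encoding transforming growth factor alpha, was lower at -0.26 (SE 0.09, DESeq2 adjusted p = 0.0191) in the authors' deposited table, or 83.5% of the control level (95% interval 73.9 to 94.4). The 95% intervals of Hbegf and Areg lay wholly above the control level and that of Tgfa wholly below it. The limit on the adjusted p makes the interval of every listed gene exclude the control level, so this adds nothing to the listing. The levels of the 3 genes differed widely. Per kilobase of the longest annotated coding transcript, the mean normalized count over all samples in the authors' deposited table was 1622 for Hbegf, 189 for Tgfa and 57.0 for Areg. Areg therefore had the largest fold change among the ligands on the lowest level, with a mean normalized count of 69.3 in the authors' deposited table. Egf, Fgf1 and Fgf2 were not listed.

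Areg is also the member whose start region carries a palindromic cAMP response element, TGACGTCA, a motif bound by CREB family factors. This motif was added after the sequence had been seen. It occurs in 1.79% of all RefSeq windows, on either strand alike since it is a palindrome, and in 1 of the 13 windows of listed members. It begins 61 bases before the Areg start and is shown in capitals.
Areg, chr5:91139349-91139648, plus strand: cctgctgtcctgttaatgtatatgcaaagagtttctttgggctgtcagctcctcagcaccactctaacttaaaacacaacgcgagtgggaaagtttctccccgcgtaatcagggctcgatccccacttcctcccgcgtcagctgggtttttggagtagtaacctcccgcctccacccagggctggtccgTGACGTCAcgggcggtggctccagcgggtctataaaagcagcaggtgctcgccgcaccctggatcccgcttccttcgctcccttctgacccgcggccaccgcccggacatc

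**Figure D2:**
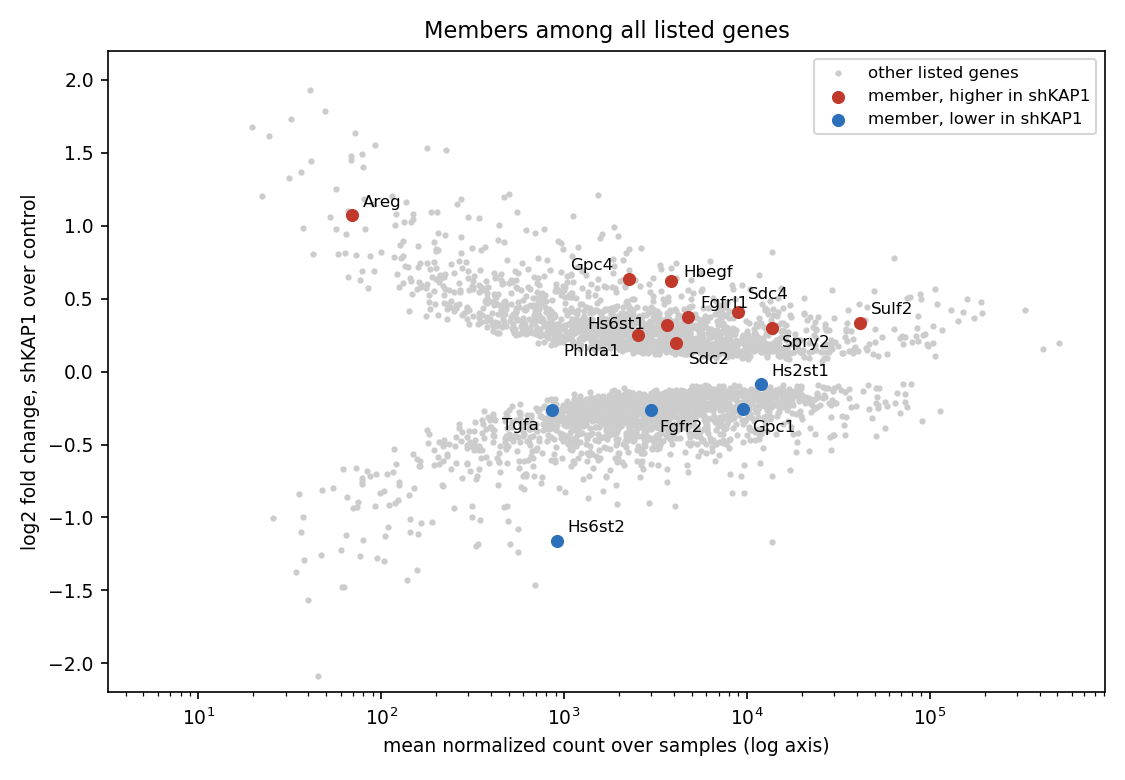
Log2 fold change of shKAP1 over control against the mean normalized count over samples (log axis) for every listed gene, with members in red (higher) and blue (lower). The empty band around 0 is where genes missed the threshold, and 5 listed genes beyond 2.2 on the vertical axis are not drawn. Areg lies at a mean count of 69.3 and Hs6st2, the lowest member, at one of 916.

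Enzymes that make or edit heparan sulfate gave 4 listed genes of 8 (50.0%, against 26.3% of all tested genes), with 2 higher and 2 lower. In the authors' deposited table Hs6st2 stood at -1.16 (SE 0.11, DESeq2 adjusted p = 8.55e-22). This is 44.8% of the control level (95% interval 38.4 to 52.2), a fall of the same order as that of Trim28 itself at 44.5% (95% interval 41.4 to 47.9). Among all 3389 listed genes Hs6st2 ranked 26 by p and 50 by size of change. Its paralog Hs6st1 stood at 0.32 (SE 0.05, DESeq2 adjusted p = 2.27e-08) in the authors' deposited table, or 125% of the control level (95% interval 116 to 134). Per kilobase of the longest coding transcript, the mean normalized count of the authors' deposited table was 982 for Hs6st1 and 211 for Hs6st2, so the paralog that was higher in shKAP1 is the more abundant one. Sulf2, an extracellular enzyme that removes 6-O-sulfates from finished chains, stood at 0.33 (SE 0.04, DESeq2 adjusted p = 4.88e-12) in the authors' deposited table, or 126% of the control level (95% interval 119 to 134). Sulf2 had the highest level per kilobase of all listed members, at a mean normalized count of 9126 per kilobase in the authors' deposited table. Hs2st1, the 2-O-sulfotransferase, stood at -0.09 (SE 0.03, DESeq2 adjusted p = 0.0274) in the authors' deposited table, or 94.1% of the control level (95% interval 90.1 to 98.3). By size of change it ranked 3384 of 3389 listed genes, so its listing rests on a small SE. Ndst1, an N-deacetylase and N-sulfotransferase, the chain polymerase genes Ext1 and Ext2, and Sulf1, the paralog of Sulf2, were not listed.

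Core proteins that carry the chains gave 4 listed genes of 8 (50.0%, against 26.3% of all tested genes), with 3 higher and 1 lower. Glypicans are tied to the membrane by a lipid anchor, and syndecans span it. Gpc4 stood at 0.64 (SE 0.14, DESeq2 adjusted p = 1.10e-04) in the authors' deposited table, or 155% of the control level (95% interval 128 to 189). Gpc1 stood at -0.26 (SE 0.06, DESeq2 adjusted p = 8.29e-05) in the authors' deposited table, or 83.5% of the control level (95% interval 77.3 to 90.3). The glypicans thus split, while both listed syndecans were higher. In the authors' deposited table Sdc4 had a log2 fold change of 0.41 (SE 0.10, DESeq2 adjusted p = 5.70e-04) and Sdc2 one of 0.19 (SE 0.06, DESeq2 adjusted p = 0.00364), which correspond to 133% and 114% of the control level. Levels per kilobase of the longest coding transcript, as mean normalized counts of the authors' deposited table, were 3638 for Sdc4, 2295 for Gpc1, 1163 for Sdc2 and 853 for Gpc4. Gpc2, Gpc6, Sdc1 and Sdc3 were not listed.

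Hs6st2 and Gpc4 share a stretch of chromosome X. In GRCm38 with GENCODE M21, Hs6st2 spans chrX:51387212-51681856 and Gpc4 chrX:52053021-52165252, both on the minus strand, with 483 kb between their start sites. The protein-coding genes between them, Usp26 and 1700080O16Rik, were not listed, and neither was Gpc3, the glypican gene on the far side of Gpc4. On the other flank of Hs6st2, Mbnl3 and Rap2c were not listed. Hs6st2 and Gpc4 are therefore the only listed genes in this stretch. The others have no value and may not have been tested, so whether they changed is unknown.

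**Figure D3:**
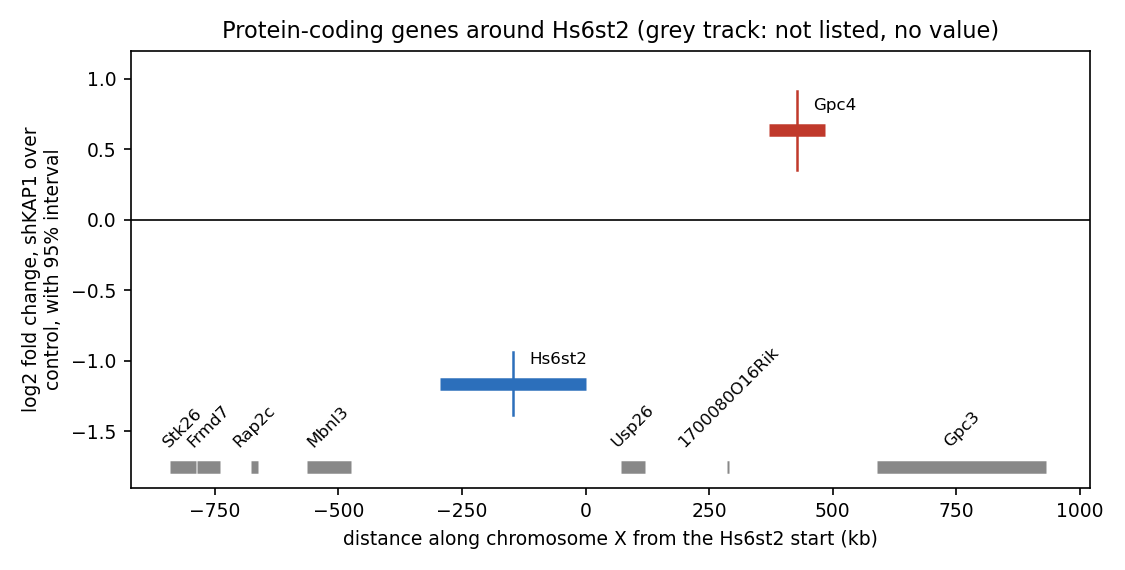
Protein-coding genes around Hs6st2, placed by distance from its start site along chromosome X (kb, horizontal), with the log2 fold change of shKAP1 over control on the vertical axis. Thick bars are gene bodies, thin vertical lines 95% intervals, and grey bars at the bottom genes that are not listed and have no value. Hs6st2 lies at -1.16 and Gpc4 at 0.64.

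Of the feedback inhibitors, 2 of 12 genes were listed, both higher, a share of 16.7% against 26.3% of all tested genes. Spry2, a Sprouty protein that restrains signalling from receptor tyrosine kinases to ERK, stood at 0.30 (SE 0.10, DESeq2 adjusted p = 0.0114) in the authors' deposited table, or 123% of the control level (95% interval 108 to 141). Its level was 6543 per kilobase of the longest coding transcript, as a mean normalized count of the authors' deposited table, second only to Sulf2 among the listed members. Phlda1, a pleckstrin homology-like protein whose transcript is induced by ERK, stood at 0.25 (SE 0.08, DESeq2 adjusted p = 0.0103) in the authors' deposited table, or 119% of the control level (95% interval 107 to 133). Neither passed an adjusted p of 0.01. Spry1, Spry4, Spred1, Spred2 and Spred3 were not listed, nor were Dusp4, Dusp5, Dusp6 and Dusp7, which encode phosphatases of MAP kinases, and Errfi1, which encodes an inhibitor of EGFR.

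None of the 4 ETS factors and growth targets, Etv4, Etv5, Ccnd1 (cyclin D1) and Myc, was listed. Together with the feedback inhibitors this leaves 2 listed genes of 16, or 12.5%, against the 26.3% of all tested genes. The heparan sulfate enzymes and core proteins gave 8 of 16, or 50.0%. The wider lists described below ran the other way. Their listed shares were 17.9% for other heparan sulfate genes, 25.0% for other feedback regulators and 30.8% for other ERK target genes. Shares of members and lists are over all symbols, some of which may not have been tested, while the 26.3% is over tested genes only. They therefore cannot decide whether the contrast repeats. No test was made of any of these shares or of their differences.

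**Figure D4:**
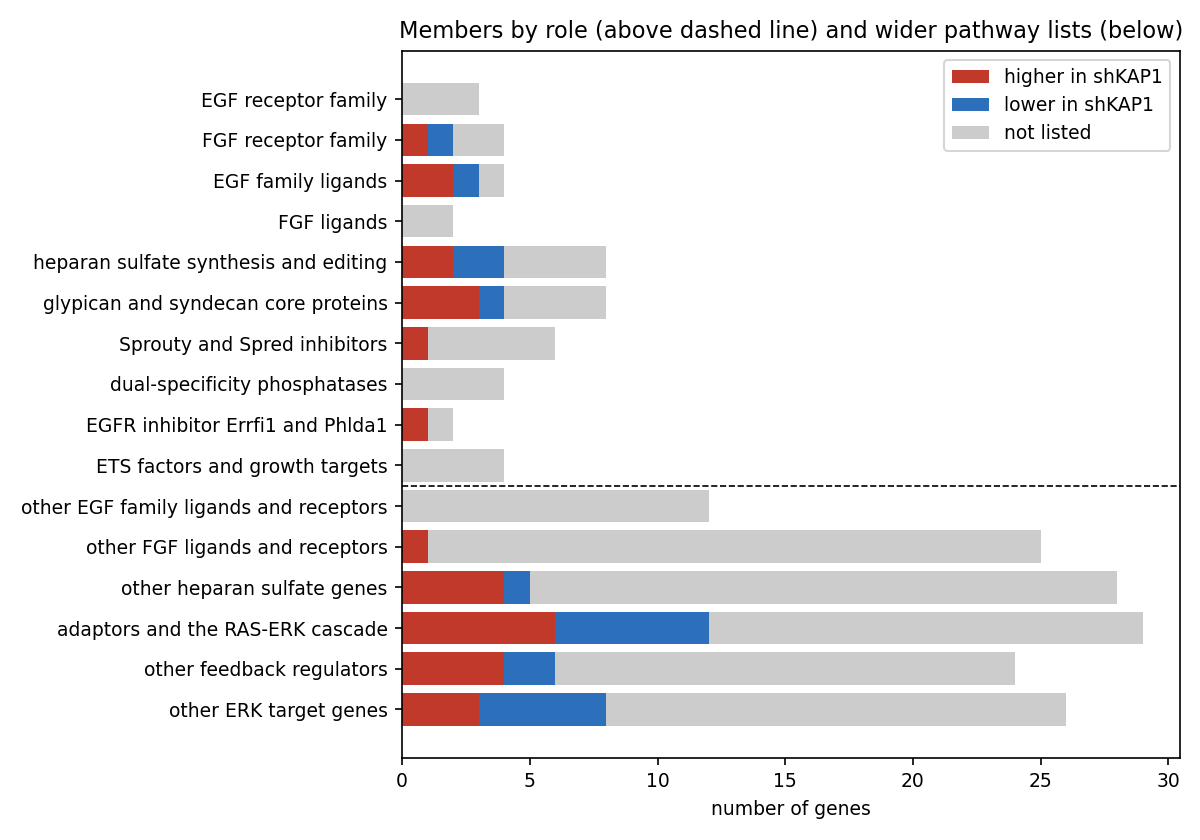
Number of genes higher in shKAP1 (red), lower in shKAP1 (blue) and not listed (grey) for each role of the 45 members, above the dashed line, and for 6 wider lists of the same pathways, below it. The bars of the EGF receptor family, the FGF ligands, the dual-specificity phosphatases and the ETS factors and growth targets are grey throughout.

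The other genes of these pathways were followed through 144 further symbols in 6 lists, of which 18 were higher, 14 lower and 112 not listed. Their listed share was 22.2%, beside 26.3% of all tested genes. Some of the 144 symbols may not have been tested, so these shares do not have the same base. The same holds for each list. None of 12 further EGF family ligands, receptors and sheddases was listed, so Areg, Hbegf and Tgfa were the listed EGF family ligands. Of 25 further FGF ligands, receptors and cofactors, Fgf18 was listed, with a log2 fold change of 1.61 (SE 0.45, DESeq2 adjusted p = 0.00269) at a mean normalized count of 24.5 in the authors' deposited table.

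Of 28 further heparan sulfate genes, 4 were higher and 1 lower, a listed share of 17.9% against 26.3% of all tested genes. Hs3st1, a 3-O-sulfotransferase, stood at 1.08 (SE 0.32) at a mean normalized count of 121, and the glypican gene Gpc5 at 0.42 (SE 0.14), in the authors' deposited table. Among enzymes of the linker that joins chain and core protein, Xylt1, a xylosyltransferase, was higher at 0.28 (SE 0.10) and B3gat3, a glucuronosyltransferase, at 0.19 (SE 0.05) in log2 fold change in the authors' deposited table, while Xylt2, B4galt7, B3galt6 and Fam20b were not listed. Glce, the epimerase that converts glucuronic to iduronic acid in the chain, was lower at -0.38 (SE 0.08, DESeq2 adjusted p = 1.01e-04) in the authors' deposited table. Adding these to the members gives 9 higher, 4 lower and 31 not listed of 44 heparan sulfate genes. Their listed share is 29.5%, near the 26.3% of all tested genes.

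Of 29 adaptors and components of the RAS and ERK cascade, 6 were higher and 6 lower, a listed share of 41.4% against 26.3% of all tested genes, and the changes were small, with a median size of 1.14-fold. Rasa1, a RAS GTPase-activating protein, was lower at -0.45 (SE 0.07, DESeq2 adjusted p = 2.55e-08), and in the authors' deposited table Rasal2, another one, was higher at 0.33 (SE 0.06, DESeq2 adjusted p = 7.03e-08). Rps6ka2, an ERK-activated kinase of the RSK family, was higher at 0.37 (SE 0.09) in the authors' deposited table. Further genes of this list were named after their values had been seen. Mapk3, encoding ERK1, was lower at -0.20 (SE 0.08) in the authors' deposited table, while Map2k1, the gene of the ERK-activating kinase MEK1, was higher at 0.15 (SE 0.05). Paralogs went apart here as well, with Hras at 0.22 (SE 0.08) and Nras at -0.18 (SE 0.07) among the RAS genes of the authors' deposited table. Araf, a RAF family kinase, was higher at 0.18 (SE 0.05) in log2 fold change in the authors' deposited table. The exchange factor gene Sos1 stood at -0.19 (SE 0.05) and the phosphatase gene Ptpn11 at 0.13 (SE 0.03), both in the authors' deposited table.

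Of 24 further feedback regulators, 4 were higher and 2 lower, a listed share of 25.0% against 26.3% of all tested genes. The authors' deposited table gives Lrig1, a membrane protein that promotes the breakdown of EGFR, at 0.29 (SE 0.04, DESeq2 adjusted p = 2.13e-12). Rnf41, a ubiquitin ligase for ErbB3, stood at 0.14 (SE 0.05) and Dusp8, a phosphatase that acts mainly on stress-activated MAP kinases, at 0.54 (SE 0.09) in the authors' deposited table. The cytokine feedback gene Socs3 was higher at 0.65 (SE 0.16), and Flrt2, a membrane protein that can bind FGF receptors, was lower at -0.48 (SE 0.15), in the authors' deposited table. Sh3bp4 was lower at -0.49 (SE 0.19) in the authors' deposited table.

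Of 26 further ERK target genes and ETS factors, 3 were higher and 5 lower, a listed share of 30.8% against 26.3% of all tested genes. Etv1, the relative of Etv4 and Etv5 in the PEA3 group of ETS factors, was lower at -0.38 (SE 0.04, DESeq2 adjusted p = 2.93e-17) in the authors' deposited table, whereas Etv4 and Etv5 were not listed. The ternary complex factor genes Elk3 at -0.26 (SE 0.09) and Elk4 at -0.29 (SE 0.11) were lower, and their partner Srf, the serum response factor, was higher at 0.42 (SE 0.13), in log2 fold change in the authors' deposited table. Lower values in the authors' deposited table were also those of Epha4, an ephrin receptor, at -0.29 (SE 0.11) and of Klf10, a transcription factor induced by TGF-beta, at -0.38 (SE 0.13). In the authors' deposited table the AP-1 genes Jun, at 0.32 (SE 0.08), and Junb, at 0.42 (SE 0.13), were higher, and Fos, Fosb and Egr1, early genes that ERK induces, were not listed.

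The members differed in how tightly their fold changes were measured. Hbegf, at a mean normalized count of 3853 in the authors' deposited table, had an SE of 0.23, and none of the 898 listed genes with a mean count within 1.5 times of it had a larger one. The median SE of those genes was 0.06 in the authors' deposited table. Only listed genes could be compared, and a gene with a large SE is listed only if its change is large as well. Genes of wide spread that missed the limit are therefore absent from these comparisons. Spry2 was exceeded in SE by 7 of 388 listed genes of like count, Sdc4 by 16 of 543, Gpc4 by 19 of 853 and Fgfr2 by 60 of 894. At the other end, Hs2st1 was exceeded by 418 of 430 and Hs6st1 by 735 of 909. The fold changes of Hbegf, Spry2, Sdc4 and Gpc4 thus carried more spread between libraries than those of most listed genes of their abundance, and which libraries carry that spread cannot be read from the table.

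**Figure D5:**
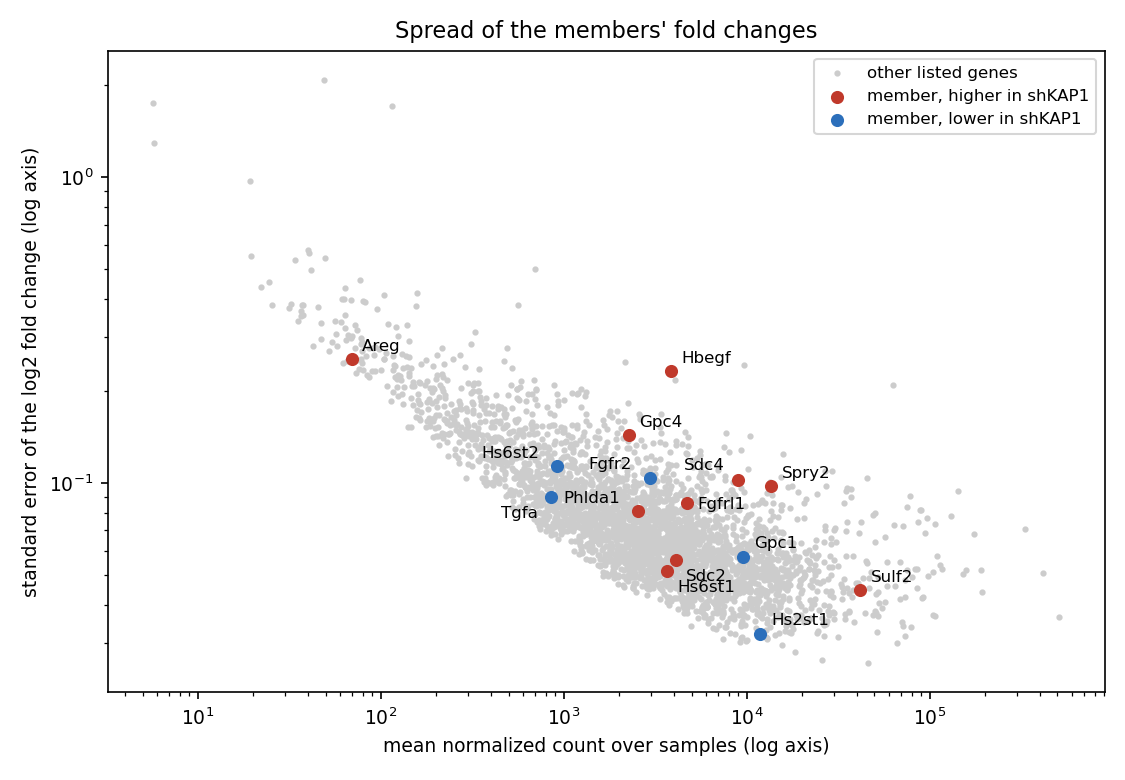
Standard error of the log2 fold change against the mean normalized count over samples (both log axes) for every listed gene, with members in red (higher in shKAP1) and blue (lower in shKAP1). Hbegf lies at the upper edge of the genes of its count, and Spry2, Sdc4 and Gpc4 near that edge.

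Direction in the table as a whole moved with base composition, with 62.4% of listed genes higher at or above the median transcript GC content of 50.4% and 33.2% below it. Of the members at or above this median, 7 of 11 were higher, and of those below it, Sdc2, Spry2, Areg and Hs6st2, 3 of 4 were higher. Median transcript GC was 48.9% for Hs6st2 and 55.1% for Hs6st1, so the diverging pair lies on either side of that median, in the direction of the relation over all genes. Fgfrl1 at 59.4% and Gpc1 at 59.1% have like GC content and opposite directions. The part of base composition in the members' values was not tested.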

How the data were processed

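Libraries were made from poly(A) RNA with dUTP strand marking, per the labels' protocols, and samples were grouped by library name. Tools named in the submitters' processing notes are Trim Galore 0.4.4, kallisto and DESeq2, with genome build GRCm38. The model formula and the libraries in the fit are not stated there. The table deposited by the authors holds 1 comparison with, per the file headers, a mean normalized count (unit: signal), the log2 fold change and its SE, a signed fold (a score that repeats the log2 column), the Wald statistic (a score), the p-value and the adjusted p-value. No counts per sample were used, so nothing was refitted. The number of genes tested was recovered as adjusted p times rank over p, which gave 12905 within 0.01 in 85.2% of lines, a step tested on simulated data. The members and lists were chosen with earlier results of these data known. Text names Trim28, all listed members and, per wider list, up to 4 genes by adjusted p, with the rest of a list where at most 8 were listed. A few genes of the lists are not reported here. Identifiers were matched to GENCODE M21 without version (3388 of 3389). Intervals of 95% use a normal approximation, and GC content is the median over annotated transcripts. Neighbours are protein-coding genes with a start within 500 kb. Of the 15 listed members, 11 had RefSeq windows (GRCm38.p6). Python 3.11.15 and pandas 2.3.3 were used.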

Additional observations from a re-analysis of the deposited data

How the results depend on the processing

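Alternatives could only tighten the limits on the authors' deposited table, so all give fewer genes by construction. The 15 listed members became 9 at an adjusted p under 0.01, 2 at 2-fold or more, 3 under Bonferroni adjustment and 3 when the interval had to lie wholly beyond 1.2-fold, and a mean count of at least 100 removed only Areg, leaving 14. The 3389 listed genes became 82 at 2-fold or more, 930 under Bonferroni adjustment and 631 beyond 1.2-fold. The 32 listed genes of the wider lists became 20 at an adjusted p under 0.01, with 14 higher and 6 lower, and 6 beyond 1.2-fold. Fgfr2, Hbegf, Tgfa, Hs2st1, Spry2 and Phlda1 lost their call at an adjusted p under 0.01, and Hs6st2 kept its call under every limit. Other tools, normalizations and leaving out replicates were not run, since single libraries have no values in the file. No paired analysis was possible because single libraries have no values there, even though both groups have libraries numbered 1, 2 and 4.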

Other observations

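The neighbours of the listed members on the chromosome were also examined, for 14 of the 15. Fgfr2 was left out because its start in GENCODE lies over 100 kb from that in RefSeq. Of 202 distinct protein-coding genes with a start within 500 kb of one of them, 25 were listed, or 12.4%, against 26.3% of all tested genes. This count includes genes that these cells may not express, and it was not tested. Sdc4 had 51 such neighbours, of which 7 were listed and 44 were not. The listed ones nearest to it on chromosome 2 are Sys1, 13.1 kb from its start site, at a log2 fold change of 0.30 (SE 0.05), Dbndd2 at 0.35 (SE 0.06) and Pigt at 0.20 (SE 0.04) in the authors' deposited table. Within the same window Pltp was higher at 0.61 (SE 0.09) and Ube2c, a ubiquitin-conjugating enzyme of mitosis, lower at -0.30 (SE 0.07) in the authors' deposited table. Phlda1 had 6 such neighbours, of which 3 were listed and all 3 were lower, with Nap1l1, 33.1 kb away, at -0.22 (SE 0.04), Osbpl8 at -0.22 (SE 0.04) and Zdhhc17 at -0.13 (SE 0.05) in the authors' deposited table. Areg, Hs2st1, Gpc1, Sulf2 and Spry2 had no listed neighbour, and for Areg that includes the EGF family ligand genes Ereg, Epgn and Btc.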
